A study of Homo sapiens with 6 samples.

Results

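Cadherins and the catenins that bind them were followed through a pair of human esophageal squamous cell carcinoma (ESCC) lines. The set holds 10 genes taken by symbol from the 58884 rows of the expression matrix: the cadherins CDH13, CDH1, CDH2, CDH3, CDH4 and CDH11, the catenins CTNNA1, CTNNB1 and CTNND1, and the nectin NECTIN1. These genes were chosen by their fold changes between the lines, which were already known, so their values are given as a description, without p-values. KYSE450 is an established ESCC line with wild-type NRF2. KEAP1null-KYSE450 is 1 clone of it, made with CRISPR-Cas9 and a guide to exon 2 of KEAP1, the adaptor that marks the transcription factor NRF2 for degradation. Both lines were untreated and grown in RPMI1640 with 10% fetal bovine serum, and RNA sequencing gave 3 libraries of each. Nothing stated that the libraries came from separate cultures, so the p-values below measure only the spread between these libraries, which may be technical, and the loss of KEAP1 cannot be told apart from other differences between a clone and its parent population.

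Cadherins are transmembrane proteins that hold neighbouring cells together by binding, through calcium-dependent extracellular repeats, to cadherins of the next cell. Inside the cell a classical cadherin binds p120-catenin (CTNND1), which keeps it at the membrane, and β-catenin (CTNNB1) or its relative plakoglobin (JUP), which in turn bind α-catenin (CTNNA1) and through it actin. Free β-catenin also enters the nucleus and acts with TCF/LEF factors. E-cadherin (CDH1) and P-cadherin (CDH3) are the main classical cadherins of squamous epithelium, N-cadherin (CDH2) is typical of mesenchymal and neural cells, and T-cadherin (CDH13) is unusual in being held by a lipid anchor without a cytoplasmic tail.

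In KEAP1null-KYSE450, CDH13 mRNA was down to 1 read per library, CDH3 and CDH1 were lower and CDH2 was higher. Among the catenins, CTNNA1 was lower and CTNNB1 higher, whereas CTNND1 and NECTIN1 overlapped between the lines. CDH4 and CDH11 were near the detection floor in both. All levels are the authors' normalized counts, with libraries numbered in the order of the matrix, and a floor of 3 reads equalled 2.77 to 3.21 normalized counts. Log2 fold changes are of KEAP1null-KYSE450 over KYSE450, on the log2(normalized count + 1) scale, with the standard error (SE) of the limma fit.

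Depth was alike in the 4 libraries whose reads were accepted as recovered, at 53027359 to 61543442 reads. KEAP1 mRNA did not differ detectably between the lines (5377 ± 334 and 5320 ± 415 normalized counts, mean ± SD, n = 3 each, limma adjusted p = 0.90). A gene-level count cannot show a small edit, so this does not check the label, but the NRF2 target NQO1 was 6.48-fold higher in KEAP1null-KYSE450. All 6 markers listed for squamous epithelium were detected, with EPCAM at 28963 ± 1387 and 28559 ± 2575 normalized counts. TP63 fell from 21770 ± 2667 to 14376 ± 1766 (log2 fold change -0.60, adjusted p = 0.0012). DSG3 rose from 7957 ± 1228 to 10652 ± 2524 (0.41, adjusted p = 0.045), with overlap between the lines. KRT5 rose, and KRT6A and KRT17 fell 26.1-fold and 28.9-fold, so the lines differed in epithelial markers as well as in cadherins. Of the markers of other cell types, 3 of 8 for fibroblasts (COL1A2, DCN and THY1), 3 of 6 for endothelium (PECAM1, TEK and CLDN5) and 1 of 6 for leukocytes (CD3E) were at or below the floor in every library. Of the rest, COL1A1 was lower in KEAP1null-KYSE450 (701 ± 122 and 388 ± 50.0 normalized counts, adjusted p = 7.4e-04), VWF did not pass the test (45.4 ± 9.19 and 54.4 ± 14.0), CDH5 is described below, and the others averaged under 12 normalized counts in both lines. The summed level of 8 fibroblast markers, mostly COL1A1, ranged from 624 to 856 normalized counts in KYSE450 and from 354 to 437 in KEAP1null-KYSE450, that of 6 endothelial markers from 59.9 to 75.8 and 48.0 to 70.6, and that of 6 leukocyte markers from 6.42 to 22.2 and 16.3 to 31.3. The part of other cell types in the results below was not tested. The first listed library was the highest of its line in both lines for 27.0% of all 16701 genes tested and for 6 of the 8 members tested.

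Of the 10 members, 8 had a mean of at least 10 normalized counts and entered the fit. Past an adjusted p of 0.05 and a 2-fold change, 1 member was higher (CDH2) and 2 were lower (CDH13 and CDH3), where 12.2% of all genes tested were higher and 5.98% lower. All KEAP1null-KYSE450 libraries lay below all KYSE450 libraries for 4 members (CDH13, CDH1, CDH3 and CTNNA1) and above them for 2 (CDH2 and CTNNB1), where 29.3% and 28.4% of all genes tested did so. Because the contrast itself chose the members, nothing is read from these counts.

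**Figure D1:**
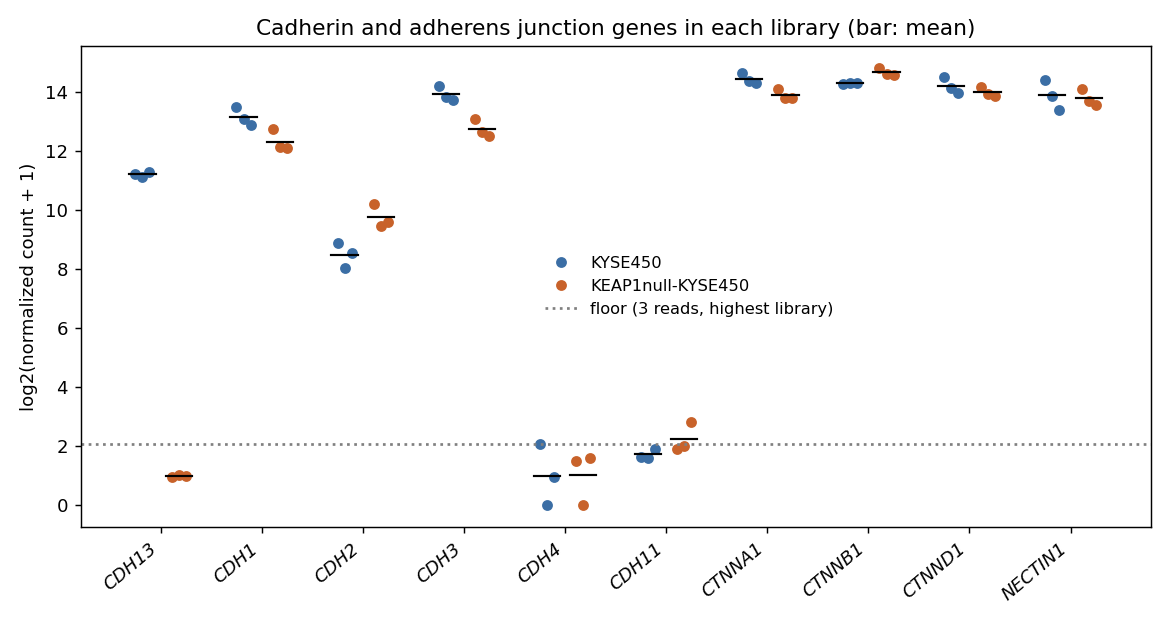
Level of each of the 10 genes as log2(normalized count + 1) in the 3 KYSE450 and 3 KEAP1null-KYSE450 libraries; black bars are means and the dotted line is the floor of 3 reads. CDH13 drops from a mean of 2401 normalized counts to 1 read per library, CDH1 and CDH3 shift down, CDH2 shifts up, and CDH4 and CDH11 stay near the floor.

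RefSeq windows of 250 bases before and 50 after a listed transcript start were on hand for 4 of the 10 members, and they are shown because they cover both members that were higher (CDH2 and CTNNB1), a catenin that was lower (CTNNA1) and a cadherin near the floor (CDH4). No entry was on hand for CDH13, CDH1, CDH3, CDH11, CTNND1 and NECTIN1. Capitals mark CG pairs, the sites of DNA methylation. Sequences are written 5′ to 3′ on the strand of the gene, from the GRCh38.p14 assembly, for the first start that the reference lists for each gene: CDH2 at chr18:28177081-28177380 (minus strand), CTNNB1 at chr3:41199255-41199554 (plus strand), CTNNA1 at chr5:138753175-138753474 (plus strand) and CDH4 at chr20:61499171-61499470 (plus strand). These starts lie 0.8 kb (CDH2), 4.8 kb (CTNNB1), 142.5 kb (CTNNA1) and 247.2 kb (CDH4) inside the gene as annotated, so the windows of CTNNA1 and CDH4 belong to alternative starts far from the outermost one, and which start these cells use was not tested.
CDH2: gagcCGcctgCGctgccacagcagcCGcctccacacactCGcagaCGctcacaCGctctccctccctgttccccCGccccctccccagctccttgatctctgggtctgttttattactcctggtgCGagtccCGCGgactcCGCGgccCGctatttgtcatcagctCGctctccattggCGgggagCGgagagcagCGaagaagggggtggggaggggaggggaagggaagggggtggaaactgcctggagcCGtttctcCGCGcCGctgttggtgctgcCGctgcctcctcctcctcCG
CTNNB1: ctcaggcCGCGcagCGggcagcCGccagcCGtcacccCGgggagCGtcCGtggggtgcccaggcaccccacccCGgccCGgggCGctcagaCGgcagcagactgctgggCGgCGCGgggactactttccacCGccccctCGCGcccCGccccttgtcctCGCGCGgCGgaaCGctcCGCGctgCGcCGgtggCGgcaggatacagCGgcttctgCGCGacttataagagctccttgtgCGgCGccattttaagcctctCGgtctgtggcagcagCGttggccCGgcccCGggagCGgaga
CTNNA1: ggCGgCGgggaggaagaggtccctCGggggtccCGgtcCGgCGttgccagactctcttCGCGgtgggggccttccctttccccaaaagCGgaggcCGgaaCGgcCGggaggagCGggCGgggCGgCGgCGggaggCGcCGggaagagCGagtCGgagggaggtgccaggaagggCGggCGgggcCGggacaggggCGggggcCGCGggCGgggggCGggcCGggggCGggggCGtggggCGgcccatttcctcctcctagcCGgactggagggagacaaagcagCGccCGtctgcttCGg
CDH4: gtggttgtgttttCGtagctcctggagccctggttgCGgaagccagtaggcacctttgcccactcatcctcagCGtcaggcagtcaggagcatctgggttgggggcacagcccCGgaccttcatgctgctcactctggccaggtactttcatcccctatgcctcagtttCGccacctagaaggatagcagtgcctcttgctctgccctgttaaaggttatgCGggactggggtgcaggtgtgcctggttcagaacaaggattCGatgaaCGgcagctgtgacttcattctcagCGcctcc

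The CTNNB1 and CTNNA1 windows held 39 and 37 CG pairs, the CDH2 window 23 and the CDH4 window 9. Set against what their base composition would give, the ratio of observed to expected CG was 0.95 for CTNNB1, 0.89 for CTNNA1, 0.69 for CDH2 and 0.37 for CDH4, with a median of 0.58 over the first listed windows of 27305 genes. The motif CAGGTG or its reverse complement CACCTG, the E-box bound by SNAI and ZEB factors, was present in the CDH4 window alone among the 4, starting at position -16 from the start, and in 20.6% of all windows. The motif TGACNNNGC or its reverse complement GCNNNGTCA, the core of the antioxidant response element, was in none of the 4 and in 13.6% of all windows. These matches describe the letters of the windows and say nothing of binding.

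CDH13 gave the largest fold of the set. CDH13 (ENSG00000140945) lies at chr16:82626965-83800640 on the plus strand of hg38, spans 1173.7 kb and has 14 exons in its canonical transcript. The KYSE450 libraries held 2414, 2245 and 2544 normalized counts (mean 2401 ± 150, SD), and the KEAP1null-KYSE450 libraries 0.923, 1.02 and 1.01, which is 1 read in each. The lines were far apart and every KEAP1null-KYSE450 library was below the floor. In the 4 libraries with recovered reads, 4986 reads in KYSE450 stood against 2 in KEAP1null-KYSE450, a ratio after scaling of 2564 with an exact 95% interval of 709 to 21177 that covers counting error only. The fitted log2 fold change of -10.24 (SE 0.24) ranged from -11.32 to -7.78 with the pseudocount and the tool, since it rests on single reads. At 218 ± 13.6 normalized counts per kb of exon, CDH13 was a mid-level mRNA in KYSE450, at percentile 56.6 of all genes tested.

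Few genes of this level fell as far. Of 7702 genes that averaged 1000 normalized counts or more in KYSE450, CDH13 was the single gene (0.013%) with every KEAP1null-KYSE450 library at or below 3 reads, and 6 of the 7702 were lower by 100-fold or more. The limits of 1000 counts and 3 reads were set to the pattern of CDH13, so its own passing was fixed in advance. Genes on either side of CDH13 did not share its fall. Among 40 other tested genes whose centres lay within 3 Mb of its centre, the median log2 fold change was -0.06, with 1 gene past both thresholds in the lower direction and 6 in the higher direction. Upstream, MPHOSPH6, 456.7 kb away, had 2465 ± 120 and 2305 ± 227 normalized counts (log2 fold change -0.10, adjusted p = 0.44). The other 4 upstream genes named by the rule were CMIP (-0.15) and SDR42E1 (-0.06), neither past the test, PLCG2, a phospholipase, which fell (-0.82, adjusted p = 0.0017), and the lncRNA AC092142.1, which rose from a low level (2.03, adjusted p = 0.039).

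Downstream, MLYCD, 98.5 kb past the end of CDH13, had a log2 fold change of 0.11 (adjusted p = 0.47). OSGIN1, a known NRF2 target that begins 130.7 kb past that end, rose from 587 ± 23.2 to 10711 ± 963 normalized counts (log2 fold change 4.18, adjusted p = 5.9e-12). NECAB2 beyond it rose as well (1.75, adjusted p = 5.5e-04), MBTPS1 did not pass the test (-0.13), and the lncRNA AC040169.3 fell (-2.22, adjusted p = 0.041). HSBP1, which overlaps the 3′ part of CDH13 on the same strand in the annotation, had 12812 ± 1975 and 14525 ± 1843 normalized counts (0.19, adjusted p = 0.25). MPHOSPH6 before CDH13, MLYCD after it and HSBP1 over its end were thus present in KEAP1null-KYSE450 at levels close to those of KYSE450.

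**Figure D2:**
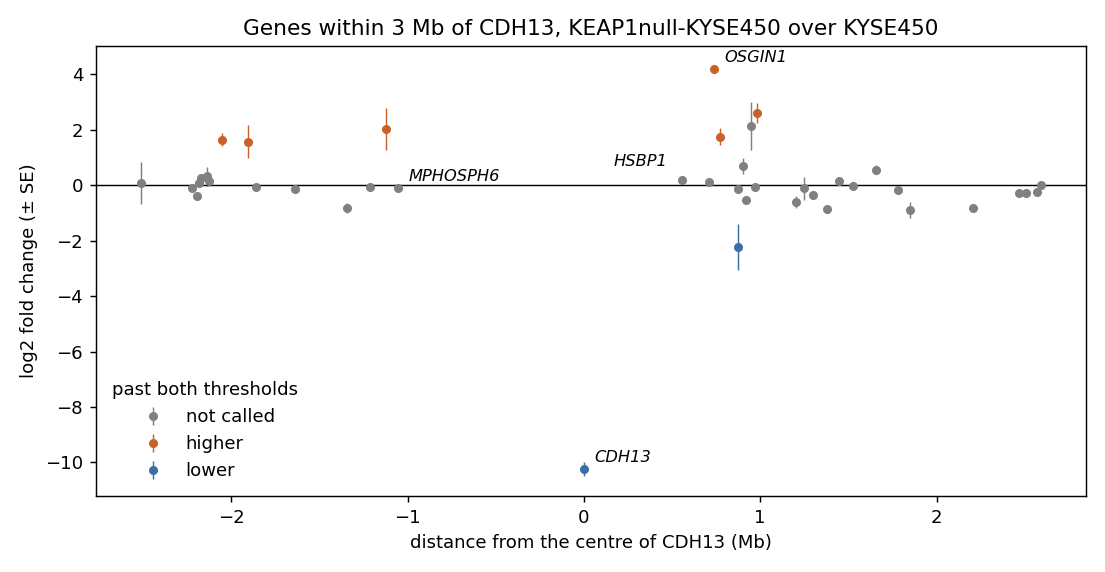
Log2 fold change of KEAP1null-KYSE450 over KYSE450 (error bars, SE, 3 libraries per line) for tested genes within 3 Mb of CDH13, by distance from its centre; colours mark genes past both thresholds. CDH13 lies alone at -10.24, while 40 other genes have a median of -0.06 and OSGIN1 stands at 4.18.

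CDH3 and CDH1 are neighbours on chromosome 16, at chr16:68636189-68727468 and chr16:68737292-68835537, both on the plus strand and 9.8 kb apart. CDH3 (ENSG00000062038), P-cadherin, is the classical cadherin of basal squamous cells. It was measured at 19308, 14777 and 13842 normalized counts in KYSE450 and at 8786, 6500 and 5822 in KEAP1null-KYSE450, so that all libraries of the clone were below those of the parent. The means of 15976 ± 2924 and 7036 ± 1553 (SD, n = 3) differed 2.27-fold, a log2 fold change of -1.19 (SE 0.15).

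CDH1 (ENSG00000039068), E-cadherin, held 11684, 8688 and 7567 normalized counts in KYSE450 and 6929, 4534 and 4407 in KEAP1null-KYSE450. The lines did not overlap, although the first listed library of the clone came close to the lowest library of the parent. The means were 9313 ± 2129 and 5290 ± 1421, a log2 fold change of -0.82 (SE 0.18), which is just outside the 2-fold limit where CDH3 is just inside it. Without the first KEAP1null-KYSE450 library the log2 fold change of CDH1 was -1.03, which brought the members past both limits from 3 to 4. Genes around both were lower on the whole, with medians of -0.40 for CDH3 and -0.41 for CDH1 over the 10 nearest well-expressed genes on each side.

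The genes next to the pair moved in both directions. ZFP90 before CDH3 was higher (log2 fold change 0.35, adjusted p = 0.010), and the lncRNA AC099521.1, too low to be tested, had means of 0.357 and 15.4 normalized counts. TANGO6 after CDH1 was lower (-0.62, adjusted p = 5.3e-04), and HAS3, a hyaluronan synthase, fell from 13316 ± 1982 to 418 ± 92.5 normalized counts (-5.00, adjusted p = 6.8e-11), a larger fall than that of either cadherin.

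CDH2 (ENSG00000170558), N-cadherin, at chr18:27932879-28177946 on the minus strand, was the member with the largest rise. Its values were 475.9, 263.8 and 374.8 normalized counts in KYSE450 and 1194, 706.5 and 778.8 in KEAP1null-KYSE450, with every library of the clone above every library of the parent. The mean went from 372 ± 106 to 893 ± 263, a 2.40-fold difference (log2 fold change 1.27, SE 0.22), against a median of 0.29 for the 20 nearest genes. Even so, CDH2 remained a low-level mRNA, at percentile 30.8 of levels per kb in KYSE450 and 42.6 in KEAP1null-KYSE450.

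CDH4 (R-cadherin, ENSG00000179242, chr20:61252261-61940617, plus strand), typical of retina and brain, had 3.21, 0 and 0.932 normalized counts in KYSE450 and 1.85, 0 and 2.02 in KEAP1null-KYSE450. All were at or below the floor, so no fold is given. CDH11 (OB-cadherin, ENSG00000140937, chr16:64943753-65126112, minus strand), typical of bone-forming and other mesenchymal cells, had 2.14, 2.02 and 2.80 in KYSE450 and 2.77, 3.06 and 6.05 in KEAP1null-KYSE450. Over the 4 recovered libraries it counted 5 reads against 6, a KYSE450 to KEAP1null-KYSE450 ratio of 0.86 with an exact 95% interval of 0.21 to 3.37, so no difference was detectable at this depth.

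Expressed per kb of exon, the levels of 23 classical and related cadherins summed to 4478 ± 825 in KYSE450 and 2256 ± 525 in KEAP1null-KYSE450. CDH3 supplied 55.8 ± 0.32% of this pool in KYSE450 and 48.9 ± 1.4% in KEAP1null-KYSE450. CDH1 supplied 34.1 ± 1.6% and 38.4 ± 1.4%, so that P- and E-cadherin stayed the 2 main cadherin mRNAs of both lines. The CDH13 share went from 4.97 ± 0.97% to 0.0041%, and the CDH2 share from 0.97 ± 0.20% to 4.58 ± 0.43%. The CDH2 share in the clone was close to the CDH13 share in the parent, but of a smaller pool. Per kb, CDH2 stood at 104 ± 30.7 in KEAP1null-KYSE450 and CDH13 at 218 ± 13.6 in KYSE450. Within single libraries the level of CDH1 per kb was 34.7, 46.5 and 28.5 times that of CDH2 in KYSE450, and 8.20, 9.07 and 7.99 times in KEAP1null-KYSE450. The shares of 3 other cadherins that passed 1% in a line, chosen after their values were seen, were 3.03 ± 0.21% and 4.95 ± 0.54% for CDH24, 0.27 ± 0.090% and 1.64 ± 0.13% for CDH12, and 0.69 ± 0.13% and 1.15 ± 0.30% for CDH8. These shares sum to 100% in each library, so a fall of 1 cadherin raises the shares of others.

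**Figure D3:**
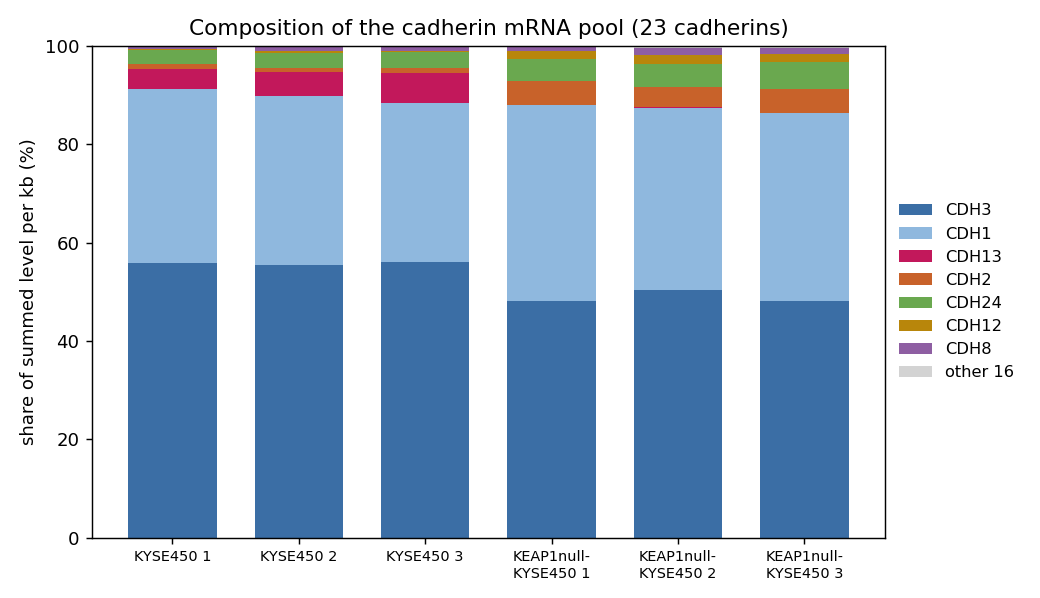
Share of each cadherin in the summed level per kb of 23 cadherins, 1 bar per library, in percent. CDH3 and CDH1 fill most of every bar, the CDH13 band (4.97 ± 0.97% in KYSE450) is gone from the KEAP1null-KYSE450 bars and the CDH2 band widens from 0.97 ± 0.20% to 4.58 ± 0.43%.

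Of the 17 cadherins in a list of the remaining family, 11 were too low to be tested, 1 was higher, 1 lower and 4 were not called. Beside this list and those below, 12.2% of all genes tested were called higher and 5.98% lower. Like the members, the lists were chosen with earlier results of these data known. Their counts and adjusted p-values therefore describe them and are no independent test. CDH12, a neuronal cadherin, rose from 66.3 ± 18.2 to 207 ± 36.2 normalized counts (log2 fold change 1.65, adjusted p = 1.4e-04). The lower gene was CDH5, the endothelial cadherin, at 19.9 ± 9.11 and 1.97 ± 1.03 normalized counts (-2.77, adjusted p = 0.0048); without the second or the third KYSE450 library its mean fell under the limit for testing. Among 16 atypical cadherins, of which 13 were tested, 1 was higher and 2 were lower. FAT3, a giant protocadherin-like molecule, had 379, 310.3 and 345 normalized counts in KYSE450 and 14.8, 12.2 and 8.07 in KEAP1null-KYSE450 (log2 fold change -4.80, SE 0.28, adjusted p = 4.0e-08). CDHR1, a photoreceptor cadherin, had 330.5, 339 and 134 against 7.38, 2.04 and 13.1 (-5.12, SE 0.53, adjusted p = 7.5e-06). Both fell in every library, though the third KYSE450 library held less CDHR1 than the other two. DCHS1 was the higher gene, at 5.86 ± 3.86 and 24.2 ± 2.92 normalized counts, a call lost in 4 of 16 alternatives.

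Among the catenins, CTNNB1 (β-catenin, ENSG00000168036, chr3:41194741-41260096, plus strand) was measured at 19956, 20644 and 20558 normalized counts in KYSE450 and at 29273, 25566 and 24520 in KEAP1null-KYSE450. Every library of the clone exceeded every library of the parent, by a modest amount. The means were 20386 ± 375 and 26453 ± 2497, a 1.30-fold difference (log2 fold change 0.37, SE 0.098). CTNNA1 (αE-catenin, ENSG00000044115, chr5:138610967-138935034, plus strand) went the other way, with 26150, 21661 and 20560 in KYSE450 and 17629, 14382 and 14483 in KEAP1null-KYSE450. Here too the lines did not overlap, and the means of 22790 ± 2961 and 15498 ± 1846 differed 1.47-fold (log2 fold change -0.56, SE 0.12). The 20 genes nearest to each had medians of -0.01 for CTNNB1 and 0.09 for CTNNA1.

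CTNND1 (p120-catenin, ENSG00000198561, chr11:57753243-57819546, plus strand) held 23708, 18175 and 16308 normalized counts in KYSE450 and 18798, 15701 and 15113 in KEAP1null-KYSE450. The lines overlapped, the log2 fold change was -0.22 (SE 0.14), and under quantile normalization it was 0.0021. NECTIN1 (ENSG00000110400, chr11:119623408-119729200, minus strand), an immunoglobulin-like adhesion molecule that joins junctions through afadin, held 22092, 15187 and 10758 in KYSE450 and 17858, 13563 and 12183 in KEAP1null-KYSE450. Its 3 KYSE450 libraries spanned all 3 of the clone, and the log2 fold change of -0.10 (SE 0.21) became 0.17 without the first KYSE450 library. The values of NECTIN1 give no direction.

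Within each library, the ratio of CTNNB1 to CTNNA1 per kb was 0.57, 0.72 and 0.75 in KYSE450 and 1.25, 1.33 and 1.27 in KEAP1null-KYSE450. The 2 mRNAs thus changed rank, with α-catenin the higher in every parental library and β-catenin the higher in every library of the clone. Set against the sum of CDH1, CDH2 and CDH3, the ratio of CTNNB1 was 0.44 ± 0.087 in KYSE450 and 1.11 ± 0.15 in KEAP1null-KYSE450, that of CTNND1 0.313 ± 0.0034 and 0.53 ± 0.059, and that of CTNNA1 0.64 ± 0.042 and 0.86 ± 0.10. All 3 catenins were therefore higher relative to classical cadherin mRNA in the clone, although CTNNA1 itself was lower and CTNND1 overlapped. These ratios compare levels of mRNA, not of protein, and depend on the exon lengths of the annotation.

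Plakoglobin (JUP), which takes the place of β-catenin on cadherins and also serves desmosomes, was 28730, 21237 and 17899 normalized counts in KYSE450 and 11033, 9609 and 9854 in KEAP1null-KYSE450. It fell by 1.13 on the log2 scale (SE 0.15, adjusted p = 4.6e-05), and by less than 2-fold, -0.94, without the first KYSE450 library. The ratio of CTNNB1 to JUP per kb was 0.39 ± 0.096 in KYSE450 and 1.09 ± 0.041 in KEAP1null-KYSE450. Their sum per kb went from 6311 ± 1093 to 4307 ± 360, so the higher CTNNB1 did not make up for the lower JUP.

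**Figure D4:**
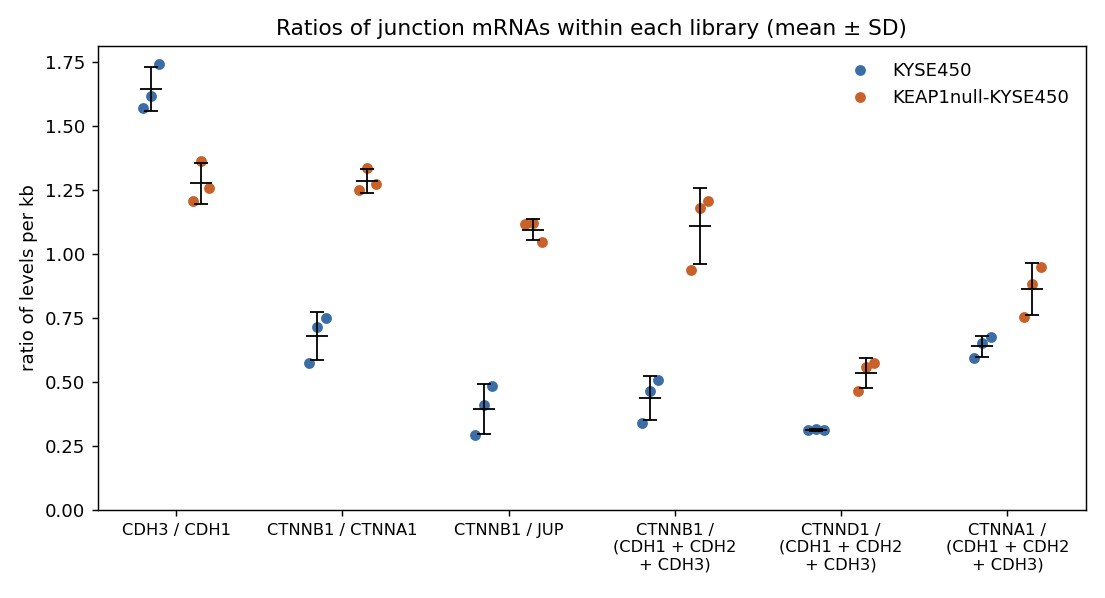
Ratios of levels per kb of exon within each library (points) with mean ± SD over 3 libraries per line. CDH3/CDH1 is lower in KEAP1null-KYSE450 (1.27 ± 0.080 against 1.64 ± 0.087), while CTNNB1/CTNNA1, CTNNB1/JUP and each catenin over the cadherin sum are higher in all 3 of its libraries.

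In the list of catenin relatives and actin linkers, 24 of 26 genes were tested, 4 were called lower and 1 higher. By the adjusted p alone 15 of the 24 were lower and 1 higher, where 25.5% of all genes tested were lower and 24.3% higher. The median log2 fold change was -0.39, beside 0.0041 over all genes tested. Among genes with a mean of at least 100, 15 of 23 in the list were lower and 0 higher, with a median of -0.41. Of all genes at that level, 31.9% were lower and 22.6% higher, with a median of -0.08. By adjusted p, 11 of the 24 were lower under quantile normalization, with a median of -0.27, where 23.5% of all genes were lower. On the recovered reads of 4 libraries 9 were lower with edgeR and 9 with DESeq2, where 14.8% and 16.4% of all genes were. The largest fall was in PLEKHA7, which ties p120-catenin to microtubules, from 573 ± 134 to 157 ± 19.1 normalized counts (log2 fold change -1.84, adjusted p = 5.8e-06). CTNNAL1, an α-catenin relative, went from 11743 ± 1604 to 5235 ± 403 (-1.16, adjusted p = 3.6e-06). VCL, vinculin, which strengthens the α-catenin link to actin, fell by 0.95 (adjusted p = 3.2e-04), short of 2-fold, and by 1.01 without the first listed library of both lines. The higher gene was CTNND2, a neuronal p120 relative at a low level.

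Of 8 other nectins and nectin-like molecules, 5 were tested, 2 were called lower and 0 higher in limma, with a median of -0.65. By the unadjusted p, for which no share over all genes is given, 4 were lower and 0 higher. edgeR called 1 lower and 0 higher, beside 872 lower and 1826 higher of all 16701 genes. PVR, the poliovirus receptor and a nectin partner, fell from 3885 ± 486 to 1773 ± 270 normalized counts (-1.13, adjusted p = 1.4e-05). NECTIN4 was the other, at 141, 98.0 and 48.5 normalized counts in KYSE450 and 72.0, 33.6 and 22.2 in KEAP1null-KYSE450 (-1.19, adjusted p = 0.043). Its lines overlapped, and its call was lost in 11 of 16 alternatives. With 5 genes this describes the list and no more. Among 18 genes of junction turnover and phosphorylation, all tested, 2 (11.1%) were higher and 0 lower in limma, and likewise in edgeR. By limma's adjusted p alone 4 (22.2%) were lower, and 7 by the unadjusted p, for which no share over all genes is given. Of all genes tested, 12.2% were called higher, 5.98% were called lower and 25.5% were lower by limma's adjusted p alone. That count of 4 was 0 with edgeR, where 14.8% of all genes were lower. Among the fits with 1 library left out, it was 9 without the first KEAP1null-KYSE450 library, 2 without the second and 1 without the third. Of all genes, 25.4%, 19.6% and 21.0% were lower in those fits. Without the first listed library of both lines it was 8, where 28.2% of all genes were lower. The 2 higher genes of this list were PTPRM and FYN. PTPRM, a receptor phosphatase that associates with cadherins, rose from 81.4 ± 23.7 to 221 ± 16.2 (1.47, adjusted p = 2.5e-04). FYN, a kinase of catenins, rose from 77.3 ± 5.30 to 202 ± 21.8 (1.37, adjusted p = 1.2e-04).

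Known repressors of CDH1 moved in both directions. Of 14 listed regulators of cadherin transcription 12 were tested, 1 was called higher and 3 lower, with a median of -0.63. By the adjusted p alone 2 were higher and 8 lower, where 24.3% of all genes tested were higher and 25.5% lower. Besides SNAI1, TWIST2 and KLF4, given below, those 8 were TCF3 (-0.62), ELF3 (-0.94), OVOL1 (-0.94), OVOL2 (-0.64) and ESRP1 (-0.28). This count covers the whole list and not repressors alone. TWIST1 (0.05, adjusted p = 0.79) and GRHL2 (0.06, adjusted p = 0.63) did not pass the test. ZEB1, a zinc-finger repressor of CDH1, was at 20.3, 7.08 and 13.1 normalized counts in KYSE450 and at 423, 455 and 388 in KEAP1null-KYSE450, a log2 fold change of 4.97 (SE 0.33, adjusted p = 1.2e-07). Its level went from near the limit of detection to that of a low-level mRNA, with no overlap. SNAI2 rose from 1808 ± 14.4 to 3178 ± 127 (0.81, adjusted p = 1.5e-05), short of 2-fold. SNAI1, a related repressor, was at 59.0 ± 17.1 and 25.9 ± 13.3 normalized counts (-1.23, adjusted p = 0.024), a call lost in 8 of 16 alternatives. TWIST2, a mesenchymal helix-loop-helix factor, fell from 479 ± 42.4 normalized counts to 114, 122 and 152 (-1.89, adjusted p = 2.3e-06), and KLF4, an epithelial differentiation factor, from 2531 ± 244 to 834 ± 113 (-1.60, adjusted p = 5.4e-07). ZEB2 stayed under the expression limit, with 8.99 in both lines. CDH1 was thus lower in the line where ZEB1 and SNAI2 were higher and SNAI1, TWIST2 and TCF3 lower. Whether any of the listed regulators acts on CDH1 here was not tested.

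Of 12 listed genes of the β-catenin destruction complex and its partners, 11 were tested and 0 passed both limits in limma, edgeR or DESeq2. By limma's adjusted p alone 5 were lower and 1 higher, with a median of -0.31. By the unadjusted p, for which no share over all genes is given, 6 were lower and 1 higher. Of all genes tested, 25.5% were lower and 24.3% higher by limma's adjusted p alone. By edgeR's adjusted p on the recovered reads 1 was lower and 1 higher, where 14.8% and 17.4% of all genes were. The count of 5 was 3 without the second or the third KEAP1null-KYSE450 library and 2 under quantile normalization. Of all genes, 19.6%, 21.0% and 23.5% were lower in those fits. Under quantile normalization, and without the third KYSE450 library, 1 gene also passed both limits in the lower direction. Of 11 β-catenin target genes 9 were tested, with 2 higher and 1 lower. AXIN2, a feedback inhibitor widely used as a readout of Wnt signalling, was 19.0 ± 3.11 normalized counts in KYSE450 and 91.3 ± 11.4 in KEAP1null-KYSE450 (log2 fold change 2.21, SE 0.30, adjusted p = 7.6e-05). LEF1, a DNA-binding partner of β-catenin, rose from 381 ± 57.3 to 1257 ± 66.2 (1.73, adjusted p = 5.5e-07). DKK1, a secreted Wnt inhibitor that is itself a target, fell from 745 ± 188 to 125 ± 22.2 (-2.56, adjusted p = 6.5e-07). RNF43 was lower by the adjusted p alone, from 350 ± 41.2 to 200 ± 40.9 normalized counts (-0.82, adjusted p = 0.0028). TCF7 (0.08), NKD1 (0.52), SP5 (1.03), NKD2 (-0.39) and ZNRF3 (-0.26) did not pass the test. The median of the 9 was 0.08.

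**Figure D5:**
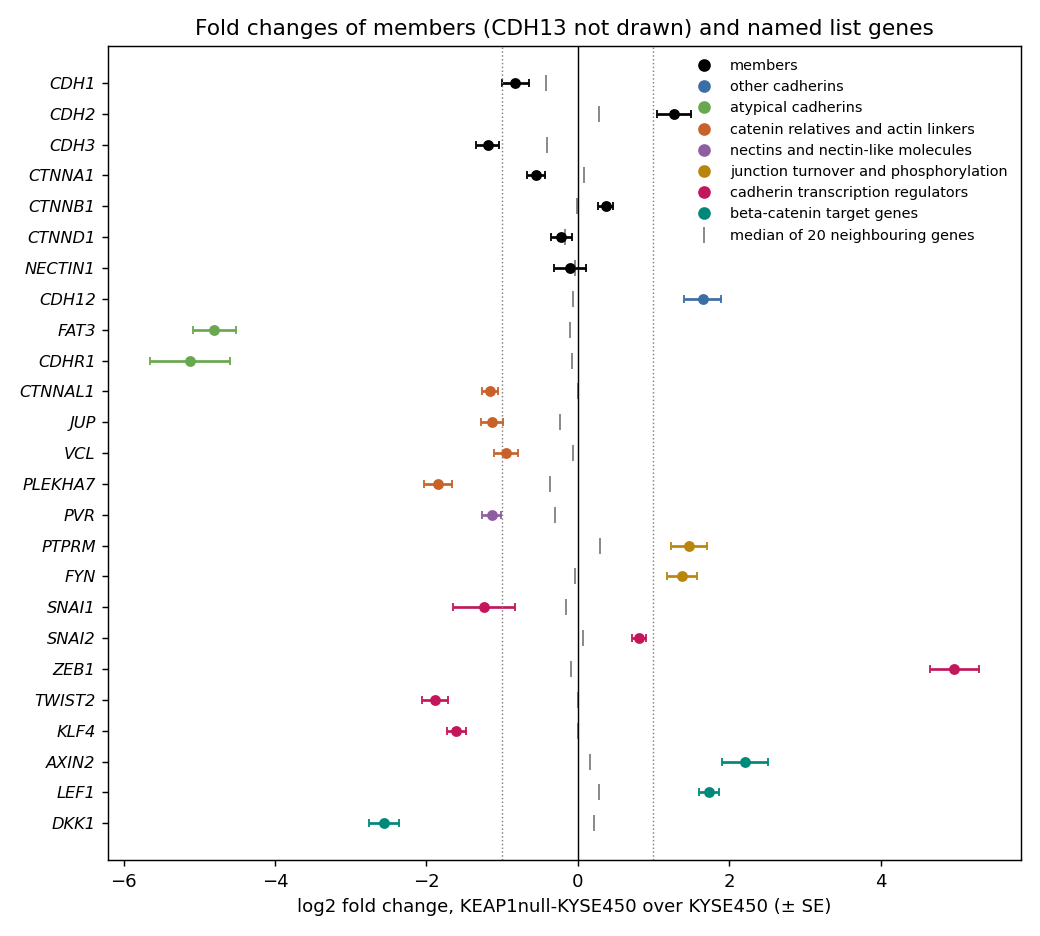
Log2 fold change (± SE, 3 libraries per line) of 7 tested members (CDH13, at -10.24, is not drawn) and of list genes named by rule, coloured by list. Grey ticks are the median of the 20 nearest well-expressed genes and dotted lines the 2-fold limits. ZEB1 (4.97) and CDHR1 (-5.12) are the extremes, and CTNNB1 and CTNNA1 lie on opposite sides of 0.

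Over all 8 lists, 98 of 122 genes were tested, 8 (8.16%) were called higher and 13 (13.3%) lower, with a median of -0.27. Of all genes tested, 12.2% were called higher and 5.98% lower. By the adjusted p alone 42 of the 98 (42.9%) were lower and 13 (13.3%) higher, where 25.5% and 24.3% of all genes tested were. Among genes with a mean of at least 100, 47.7% of the list genes and 31.9% of all genes were lower. The share of lower list genes was 24.5% with edgeR on the recovered reads, where 14.8% of all genes were lower. As the lists were chosen with earlier results known, no excess over all genes is read from these shares. CTNNB1 overlaps ULK4 (198 and 209 normalized counts in the parent and the clone), NECTIN1 overlaps USP2-AS1 (301 and 199) and CDH3 overlaps AC126773.2 (44.9 and 52.6), each on the opposite strand. Counting by strand was not stated, so reads in such overlaps cannot be assigned, but these levels were small beside those of the members. This does not hold for CDH13, which overlaps HSBP1 on the same strand. HSBP1 (12812 and 14525 normalized counts) was above CDH13 (2401 and 0.984) in both lines, and strand cannot separate reads there. As these are bulk cultures, fewer expressing cells and less RNA per cell cannot be told apart.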

How the data were processed

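Of the processed data, the authors deposited 1 matrix of normalized counts, a signal scaled per library, for 3 KYSE450 and 3 KEAP1null-KYSE450 libraries. The submitters' processing notes name FastQC 0.11.5, cutadapt 1.12, STAR 2.6.90c and featureCounts 1.5.1, and by the methods reads were aligned to hg38, counted per gene and normalized. Matrix columns carry the line but no replicate number, so libraries were numbered by column order. Values were whole multiples (within 0.01 read) of what 1 read is worth, for 100% of values in all 6 libraries. Whole reads were accepted as recovered for 4 libraries (53027359 to 61543442 reads). Only these 4 entered edgeR, DESeq2 and the exact intervals.

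The members and lists were chosen with earlier results of these data known. limma 3.58.1 (R 4.3.3; lmFit, eBayes with trend) was fitted to log2(normalized count + 1) for 16701 genes with a mean of at least 10. Adjusted p-values (Benjamini-Hochberg, two-sided) run over all of them. Calls needed an adjusted p below 0.05 together with a 2-fold difference. The script was tested on simulated data. Named genes were the members, KEAP1, the genes nearest to CDH13 and to the CDH1 and CDH3 pair, per list up to 4 called genes per direction averaging 100 or more in one of the lines, and SNAI1, SNAI2, ZEB1, ZEB2, AXIN2, JUP and VCL; 1 gene that this rule names is not reported here. NQO1, the marker genes and called genes at lower levels were named beside these, as were TWIST1, GRHL2, the other lower regulators and the other tested β-catenin targets. Positions and exon lengths came from gencode v44 on hg38. The local median covers 10 genes with a mean of at least 100 on each side. Alternatives were other pseudocounts, filters, scalings and tests, each library left out, and edgeR 4.0.16 and DESeq2 1.42.0 on the recovered reads; leaving out the first listed library of both lines was added after seeing the data.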

Additional observations from a re-analysis of the deposited data

How the results depend on the processing

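CDH13, CDH1, CDH2, CDH3, CTNNA1 and CTNNB1 kept their direction in all 17 alternatives. CTNND1 turned to 0.0021 under quantile normalization, and NECTIN1 to 0.11 there, between -0.35 and 0.17 with 1 library left out (0.17 without the first KYSE450 library and 0.021 without the third KEAP1null-KYSE450 library) and to 0.0081 without the first listed library of both lines; the cause was not tested. Requiring a mean of 100, which tests fewer genes, left 875 genes higher and 683 lower (56.2% higher, against 2045 and 999, 67.2%, as reported) and 5 list genes higher. Quantile normalization gave 1388 higher and 1289 lower (51.8% higher). A limma test against a 2-fold change, stricter by construction, left 626 genes higher and 395 lower, 3 list genes higher and 6 lower, and 1 member, CDH13. Leaving out 1 library at a time gave 1708 to 2057 genes higher and 860 to 1106 lower. JUP and CTNNAL1 fell short of 2-fold under quantile normalization (-0.92 and -0.98). No paired analysis was possible because the columns of the matrix carry no replicate number. Ratios within a library do not depend on a scaling of whole libraries.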
